A study of Mus musculus with 29 samples.

Results

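The nuclear-encoded subunits of the respiratory chain were followed across 29 RNA-seq libraries of mouse atria. Members were chosen by gene name (Nduf with a, b, c, s or v and a digit, Sdha to Sdhd, Uqcr, Cox4 to Cox8, and Atp5), without pseudogene names ending in -ps, and with at least 10 counts in every library. Of 55292 gene names, 88 met the name rule and 83 of those met the count minimum: 35 of complex I, 4 of complex II, 8 of complex III, 19 of complex IV (with Ndufa4 and Ndufa4l2, named for complex I) and 17 of complex V. The 5 left out were Cox8c, with 0 counts in all 29 libraries, Cox7b2 (0 to 17 counts), Ndufa11b (0 to 26), Ndufs6b (0 to 110) and Ndufb4c (4 to 120). Just inside the minimum were Cox6c2, with 14 counts in its lowest library, Cox4i2 with 41, Cox6b2 with 62 and Ndufa4l2 with 98.

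The respiratory chain moves electrons from NADH (complex I) and succinate (complex II) through complexes III and IV to oxygen, and the proton gradient this builds drives ATP synthesis by complex V, the ATP synthase. The catalytic centres sit in a few core subunits, some of them encoded in the mitochondrial genome, and many accessory subunits around them are needed for assembly and stability. Heart muscle is among the tissues richest in these complexes, and several complex IV subunits have a form typical of striated muscle beside a widely expressed one.

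All libraries came from male mice, and polyadenylated RNA was sequenced. In the diet experiment, control mice and NaV1.5 transgenic mice ate a regular diet (RD) or a high-fat diet (HFD) that began at 5 weeks of age and lasted 4 weeks: 4 libraries of control mice on RD (Ctrl_RD), 4 of control mice on HFD (Ctrl_HFD), 4 NaV1.5_RD and 5 NaV1.5_HFD. In the supplementation experiment every mouse was NaV1.5 and on the same HFD schedule, with vehicle (5 libraries) or with nicotinamide riboside (NR, a precursor of NAD, the cofactor that complex I oxidises; 7 libraries). The promoter, species and tissue range of the transgene are not given in the sources used here. Whether libraries stem from different mice is not stated, and the p-values given here reflect spread among libraries that may in part be technical.

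Libraries held 13189995 to 33061018 counts. Of the 12 cardiomyocyte markers, all were present in all 29 libraries, and their summed level, in counts scaled to library size (CPM), was 81256 to 105563 CPM in all but the NR libraries labelled batch 2, where it was 37969 to 45063 CPM. Within the diet experiment it was lowest in NaV1.5_HFD (81256 to 91565 CPM), without overlap with NaV1.5_RD (92786 to 100999 CPM) or with Ctrl_HFD of batch 1 (94829 to 99178 CPM). Of 6 ventricular markers, Irx4 was at 0 in 23 libraries, and the other 5 were detected in all 29 (Myh7 at 136 to 642 CPM, Myl3 at 41.0 to 321 CPM), with a summed level of 205 to 999.7 CPM. In whole tissue, fewer cells of a type and less RNA per cell cannot be told apart. Batch labels cross the groups poorly: the diet experiment is batch 1 apart from Ctrl_HFD replicate 4 (batch 2), all vehicle libraries are batch 3, and NR replicates 1 to 5 are batch 2 while 6 and 7 are batch 3. With batch in the model, the NR contrast therefore rests on 2 NR libraries against 5 vehicle libraries. NaV1.5_RD replicate 4 stood apart from its group in these genes, as described below, and results that rest on it are given with and without it.

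The promoters of the complex IV subunit pairs are shown first, because these pairs are compared within libraries further on. Cox6a2, the muscle partner of Cox6a1, is not shown. Each run is the 250 bases before the RefSeq start site (GRCm38.p6), 5′ to 3′ on the gene's strand, with matches to 5 motifs in capitals. The muscle forms shown are Cox7a1 (chr7:30183921-30184170, plus strand) and Cox8b (chr7:140900447-140900696, minus strand). The widely expressed forms are Cox7a2 (chr9:79759854-79760103, minus strand), Cox8a (chr19:7217617-7217866, minus strand) and Cox6a1 (chr5:115348959-115349208, minus strand).
Cox7a1: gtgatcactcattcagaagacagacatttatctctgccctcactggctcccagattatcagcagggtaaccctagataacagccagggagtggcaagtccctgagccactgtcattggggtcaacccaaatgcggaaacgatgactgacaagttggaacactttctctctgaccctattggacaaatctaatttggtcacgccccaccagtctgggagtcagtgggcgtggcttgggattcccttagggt
Cox8b: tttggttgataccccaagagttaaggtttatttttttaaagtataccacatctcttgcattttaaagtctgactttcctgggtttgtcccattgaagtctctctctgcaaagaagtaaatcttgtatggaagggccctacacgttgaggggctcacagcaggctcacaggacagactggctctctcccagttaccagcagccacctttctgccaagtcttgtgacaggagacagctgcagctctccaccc
Cox7a2: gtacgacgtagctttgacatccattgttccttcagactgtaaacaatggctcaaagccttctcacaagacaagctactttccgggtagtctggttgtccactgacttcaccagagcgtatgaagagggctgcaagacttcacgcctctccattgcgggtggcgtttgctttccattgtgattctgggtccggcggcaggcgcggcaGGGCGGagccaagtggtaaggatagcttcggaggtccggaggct
Cox8a: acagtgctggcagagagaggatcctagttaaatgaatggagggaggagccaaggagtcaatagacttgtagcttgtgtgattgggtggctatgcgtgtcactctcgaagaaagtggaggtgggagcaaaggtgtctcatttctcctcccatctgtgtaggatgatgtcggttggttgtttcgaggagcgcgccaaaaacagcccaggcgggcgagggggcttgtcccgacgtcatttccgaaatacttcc
Cox6a1: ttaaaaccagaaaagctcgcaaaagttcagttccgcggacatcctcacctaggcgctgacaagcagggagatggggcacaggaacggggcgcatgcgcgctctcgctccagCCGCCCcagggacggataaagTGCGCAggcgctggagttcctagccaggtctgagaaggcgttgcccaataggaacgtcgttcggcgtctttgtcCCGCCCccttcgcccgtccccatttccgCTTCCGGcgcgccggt
The capitals are an SP1 match 44 bases upstream of the start in Cox7a2, and in Cox6a1 an SP1 match at 139 bases, an NRF1 core at 118, a second SP1 match at 44 and an ETS match at 16. The runs of Cox7a1, Cox8b and Cox8a hold none of the 5 motifs.

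Of the 83 members, 67 had an entry in the RefSeq promoter table, with 72 promoters of 300 bases (250 before the start and 50 after it). Motifs were searched on both strands as exact letters: the NRF1 core TGCGCA, the ETS motif CCGGAAG bound by GABPA, the ERR core AAGGTCA, the YY1 core AAGATGG and the SP1 motif GGGCGG. The first 4 belong to factors known to bind promoters of respiratory genes. The NRF1 core was in 26.4% of member promoters and in 7.76% of all 32851 promoters of the same length. For the ETS motif these shares were 23.6% and 8.86%, for YY1 15.3% and 6.34%, for ERR 11.1% and 4.72%, and for SP1 38.9% and 35.7%. The shares were not tested, and the median GC content was 57.5% in member promoters and 52.7% in all.

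Levels were compared between genes per length, as CPM per kilobase of exon over the 4 Ctrl_RD libraries, where 26 of the 83 members stood among the 100 highest of 16168 genes tested and 76 among the highest 1000. In complex IV, the highest level was that of Cox6a2, the muscle form of subunit 6a, at 2660.2 ± 558 (SD, n = 4), followed by Cox8b at 1581 ± 274 and Cox7a1 at 1221 ± 74.96. The ranges of Cox6a2 (2133 to 3439) and Cox8b (1416 to 1989) did not overlap, whereas Cox7a1 (1154 to 1303), the accessory subunit Cox6b1 (1098 to 1460) and Atp5b (1112 to 1282) did not differ beyond their spread. Atp5b and Atp5a1, the catalytic and regulatory subunits of the ATP synthase head, had 1203 ± 80.9 and 1031 ± 67.5. In complex III the small subunits Uqcrh (686 ± 105) and Uqcr11 (674 ± 96.5) led, with overlapping ranges, and the large core protein Uqcrc2 was lowest at 208 ± 14.6. In complex II the membrane anchor Sdhd had 315 ± 15.3, the iron-sulfur subunit Sdhb 277 ± 35.2, the flavoprotein Sdha 209.9 ± 18.02 and the anchor Sdhc 113 ± 8.35. In complex I the accessory subunits Ndufa1 (572 ± 73.2) and Ndufa13 (489 ± 56.3) led, and Ndufb4 was lowest at 15.4 ± 3.36. Medians per complex were 173 (I), 244 (II), 431 (III), 279 (IV) and 273 (V).

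**Figure D1:**
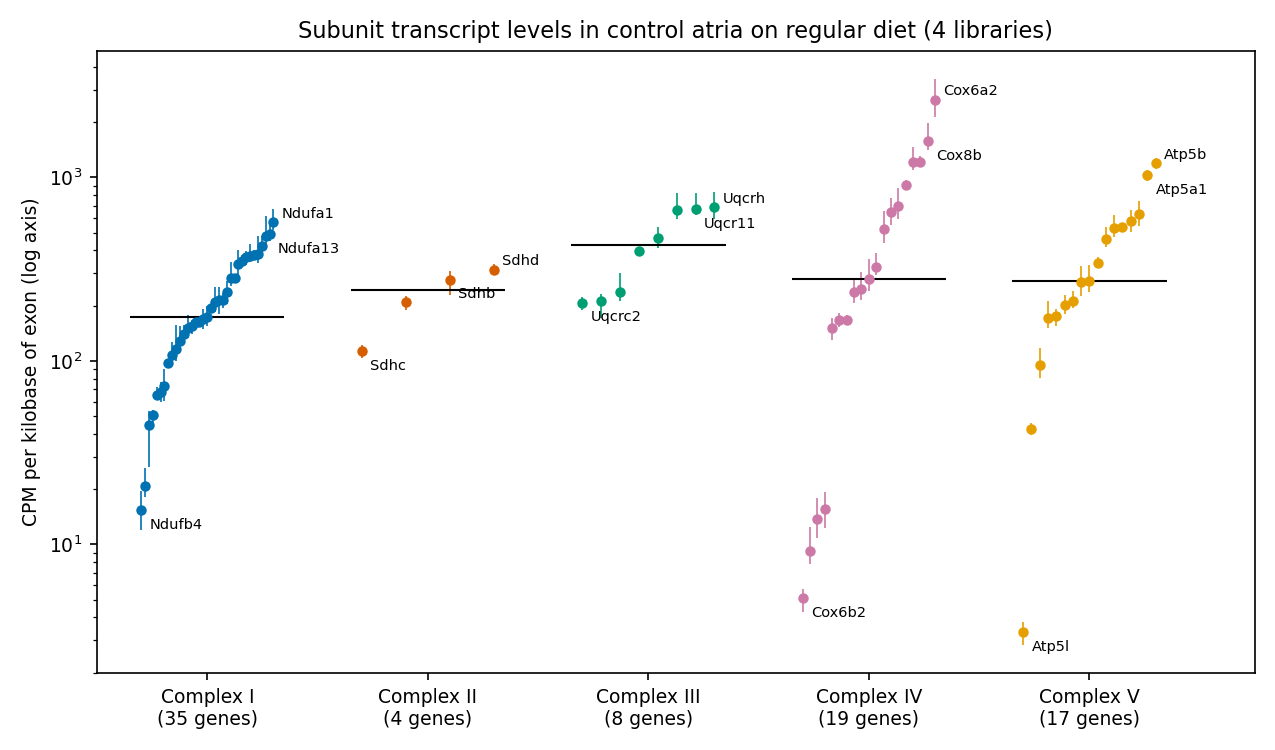
Level of each of the 83 subunit genes in the 4 Ctrl_RD libraries, as CPM per kilobase of exon on a log axis, by complex. Points are means, bars reach from the lowest to the highest library, black lines are medians of a complex, and the 2 highest and the lowest gene of each complex are named: Cox6a2 is highest at 2660.2 and Atp5l lowest at 3.34.

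At the low end of complex IV were forms used mainly outside the heart: Cox6b2, a testis form, at 5.07 ± 0.668, and Cox4i2, a form known from lung and low oxygen, at 9.24 ± 2.16. Atp5l (3.34 ± 0.429), a membrane subunit of the ATP synthase, was the lowest member of all. Its value, like those of Ndufb4, Ndufs5 and Cox7c, is uncertain, because pairs mapping to several places were left out of the counts and these genes have near-identical copies. The exon length of Atp5l also spans 6443 bases over all its transcripts, far more than the coding part of this small protein needs, which lowers a value per kilobase. Cox6c2 is a near-identical copy of Cox6c, and its level of 13.7 ± 3.12 is uncertain for the same reason.

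Together the 83 genes took 3.22 to 6.30% of all counts in a library. The share was 4.48, 4.67, 4.36 and 4.95% in the Ctrl_RD libraries, 5.08, 4.71, 4.59 and 4.79% in Ctrl_HFD, and 4.71, 4.92, 4.74 and 6.30% in NaV1.5_RD. In NaV1.5_HFD it was 5.07, 5.21, 5.12, 5.11 and 5.25%. The NaV1.5_HFD libraries lay close together and above 7 of the 8 control libraries, and a single NaV1.5_RD library, replicate 4, was the highest of all 29. In the supplementation experiment the share was lower throughout: 3.23 to 3.31% in the 5 vehicle libraries, 3.22 and 3.33% in the NR libraries of batch 3, and 3.60 to 3.95% in those of batch 2. Within the diet experiment the 13 mitochondrially encoded subunits took 18.5 to 26.1% of counts.

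**Figure D2:**
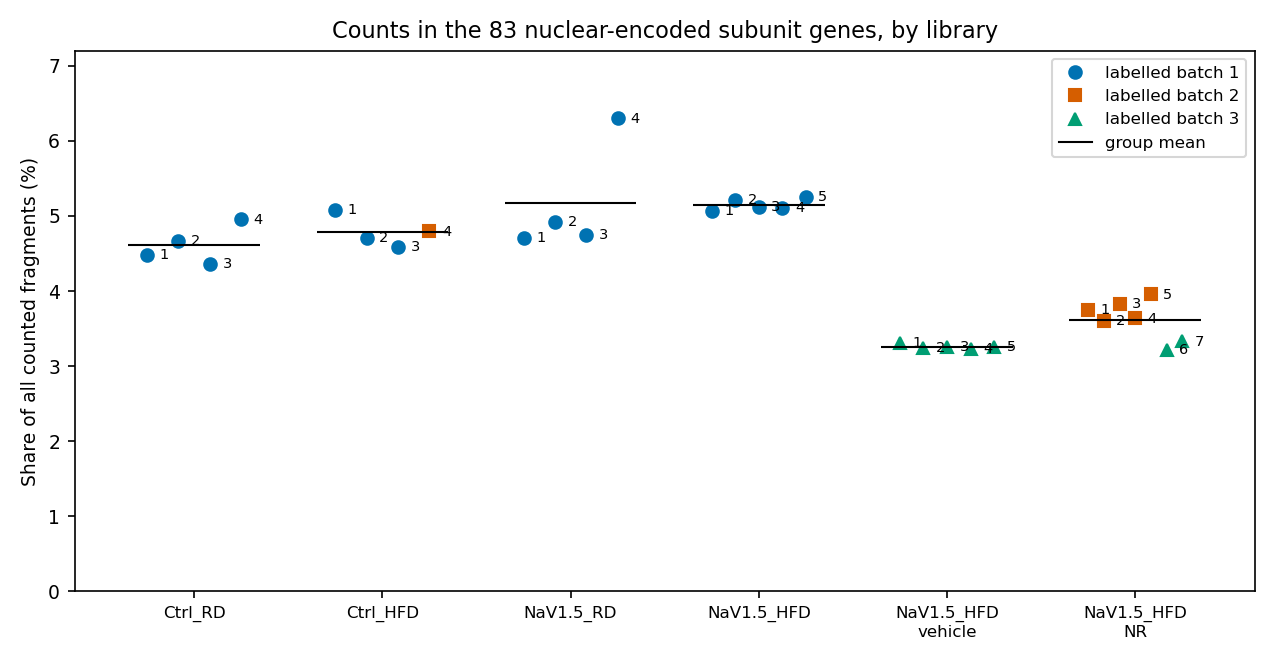
Share of all counts (in %) taken by the 83 subunit genes in each library, by group, with the replicate number beside each point, symbols for the labelled batch and a line at the group mean. NaV1.5_RD replicate 4 stands alone at 6.30%, and all batch 3 libraries lie at 3.33% or below.

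Spread within groups differed between groups. The median coefficient of variation was 12.7% for members and 12.9% for all genes tested in Ctrl_RD, 6.78% and 13.2% in NaV1.5_HFD, and 5.61% and 12.3% in vehicle. In NaV1.5_RD it was 22.2% for members and 15.6% for all genes, and without replicate 4 it was 5.57% and 10.2%.

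NaV1.5_RD replicate 4 was higher than the other 3 NaV1.5_RD libraries in 76 of 83 members, compared with 35.5% of all genes tested, and its median log2 difference from the median of those 3 was 0.58 for members and -0.01 for all genes. Cox7a2 had 471, 538 and 502 CPM in replicates 1 to 3 and 993 CPM in replicate 4. Atp5e, the epsilon subunit of the ATP synthase, had 494, 518 and 524 CPM against 993 CPM, and Ndufa4, a complex IV subunit, 866, 935 and 913 against 1761 CPM. In each of these 3 genes replicate 4 lay far above the others, which were close together. Atp5b had 5016, 5333 and 5153 CPM in replicates 1 to 3 and 5331 CPM in replicate 4, inside their range. Ndufv1, the NADH-binding subunit of complex I, had 760.1, 772 and 766 against 783 CPM. The core protein Uqcrc1 was lower in replicate 4 (849.6 CPM) than in the others (868, 1016 and 1010.5 CPM). By role, the median log2 difference of replicate 4 was 0.62 for the 54 accessory subunits (-0.25 to 1.04) and 0.47 for the 11 alternative subunits (-0.44 to 1.40). It was 0.40 for 11 subunits of the electron path of complexes II and III or of the head, stalk and c ring of complex V (0.05 to 0.94). For the 7 core subunits of complex I it was 0.32 (0.03 to 0.80). In this grouping Uqcrc1, Uqcrc2, Cox4i1 and Cox5a count as accessory, although they are called core elsewhere here.

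Other values moved with this library. Its 86 cytosolic ribosomal protein genes were higher by a median log2 of 0.93, with 85 of 86 above the other 3 libraries. Genes with exons of under 1000 bases in all were higher by a median of 0.52 and those of 3000 bases or more differed by -0.08. Members in that longest class still had a median of 0.54. The summed level of erythroid markers was 2639 CPM in replicate 4 and 416 to 1171 CPM in the other 3, and the TCA cycle genes had a median log2 difference of 0.23. The part of these values in the members' difference was not tested.

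**Figure D3:**
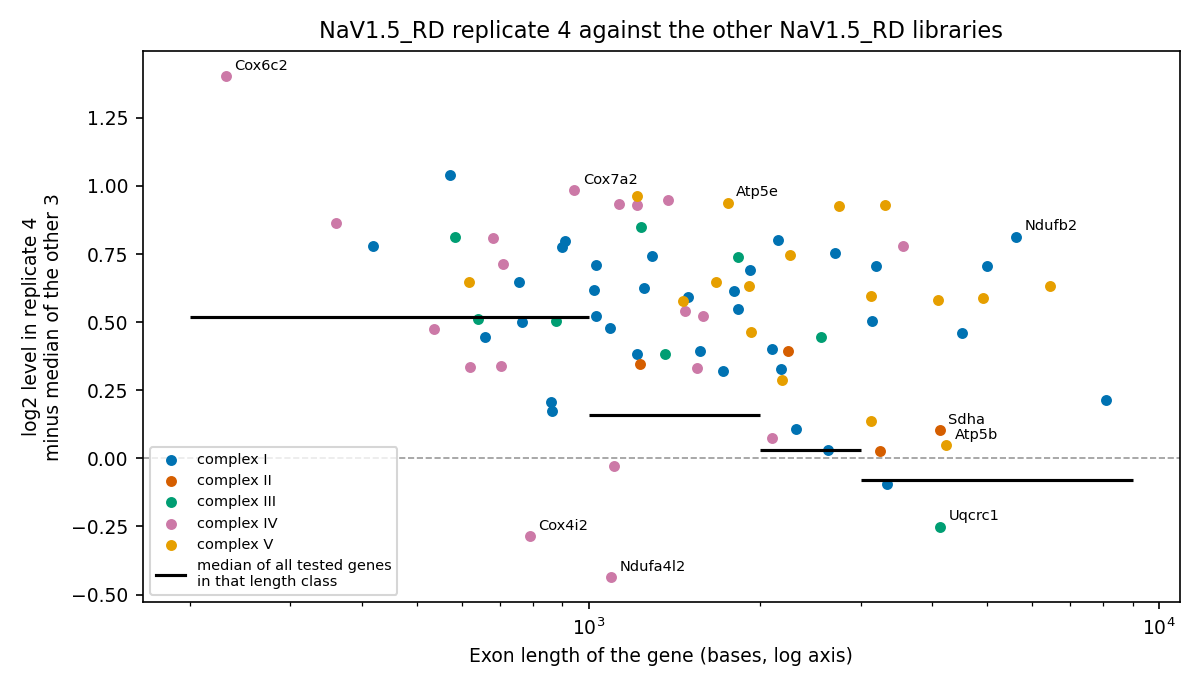
log2 level of each member in NaV1.5_RD replicate 4 minus the median of the other 3 NaV1.5_RD libraries, against the gene's exon length in bases on a log axis, coloured by complex. Black lines are medians of all genes tested in 4 length classes, which fall from 0.52 to -0.08. Most members lie above the line of their class, and Atp5b (0.05), Sdha (0.11) and Uqcrc1 (-0.25) are among the lowest.

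The first comparison asks whether the NaV1.5 transgene went with a change on RD. Members leaned towards higher levels in NaV1.5 mice, 80 of 83 above 0 with a median log2 difference of 0.22, against 0.01 over all 16168 genes tested. No member passed edgeR's quasi-likelihood test with Benjamini-Hochberg adjustment over all genes, where 0.0124% of genes were called (smallest adjusted p of a member 0.54). At an unadjusted p under 0.05, 10 members were counted, all higher, beside 3.53% of all genes in that direction. With NaV1.5_RD replicate 4 included, complex IV had the highest median, 0.26, with 19 of 19 above 0, and complex II the lowest, 0.07. Without that library Cox7a2l (-0.05), Cox6c2 (-0.007) and Cox7c (-0.003) were below 0, and the other complex IV members stayed above. Erythroid markers were above 0 in 5 of 5 (median 0.30), macrophage markers in 7 of 7 (0.13) and fibroblast markers in 7 of 8 (0.15), with none called. The erythroid lean rested on NaV1.5_RD replicate 4, at 2639 CPM summed. The rest of that group had 416 to 1171 CPM, and Ctrl_RD 425 to 1607 CPM. The summed level of brown adipocyte markers did not overlap (60.3 to 68.7 CPM in Ctrl_RD, 69.7 to 80.3 CPM in NaV1.5_RD). The largest part of that sum was Ppargc1a (median 53.4 CPM over all libraries), which is also on the list of regulators of respiratory genes. Ucp1 was at 0 in 19 libraries and Elovl3 in 25, so the sum is no measure of brown fat. For all of these, their part in the members' values was not tested.

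Atp5l had the smallest p of a member, with a log2 difference of 0.44 ± 0.13 (SE, edgeR adjusted p = 0.54), but its counts are uncertain (above). Ndufc2, an accessory subunit of complex I, had 158, 166, 146 and 178 CPM in Ctrl_RD and 178, 190.1, 189.6 and 297 CPM in NaV1.5_RD. All 4 NaV1.5 libraries were above the highest control, 1 of them far above, and the log2 difference was 0.40 ± 0.13 (SE; edgeR adjusted p = 0.64). Groups that did not overlap were seen for 3 members (Ndufc2, Ndufs5 and Cox5a), or 3.61%, beside 1.72% of all genes. Cox4i1, the main form of complex IV subunit 4, had 1389, 1495, 1331 and 1429 CPM in Ctrl_RD and 1474, 1653, 1599 and 2013 CPM in NaV1.5_RD, a log2 difference of 0.26 ± 0.10 (edgeR adjusted p = 0.78). The 2 groups overlapped by 1 library. Sdha (-0.08 ± 0.09), Ndufs1 (-0.04 ± 0.10) and Atp5a1 (-0.03 ± 0.09), which are among the largest subunits, were the 3 members below 0.

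With all libraries and an offset for gene length, the median of the members was 0.10. Without NaV1.5_RD replicate 4, and with no such offset, it was 0.05, with 63 of 83 above 0 and 3 at an unadjusted p under 0.05 by edgeR. Without that library the difference of Atp5l was 0.30, that of Ndufc2 0.20 and that of Cox4i1 0.16, while Sdha (-0.11), Ndufs1 (-0.10) and Atp5a1 (-0.06) stayed below 0. In that comparison 0.0304% of genes were called and no member.

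On HFD, the same comparison of genotype gave a smaller lean: 66 of 83 members were above 0, with a median log2 difference of 0.08. None passed (0.0866% of genes called, smallest adjusted p of a member 0.77), and none had an unadjusted p under 0.05, beside 8.05% of all genes. Atp5md, a small membrane subunit of the ATP synthase, had 352, 310.0 and 262 CPM in Ctrl_HFD of batch 1, 281 CPM in the batch 2 library, which the batch term takes out of the comparison, and 351, 399.5, 408, 343 and 385 CPM in NaV1.5_HFD. Its difference was 0.29 ± 0.18 (edgeR adjusted p = 0.77), with overlap in 1 control library. Atp5l was the 1 member whose batch 1 groups did not overlap (23.7 to 25.2 CPM and 27.5 to 29.3 CPM; 1 of 83 members beside 2.81% of all genes, higher). Sdha was on the other side, at -0.11 ± 0.09. Markers of several cell types moved with this comparison, none of them called. Cardiomyocyte markers were above 0 in 1 of 12 (median -0.16), with summed levels that did not overlap among batch 1 libraries (above). The batch 2 control library had 87250 CPM of them, inside the NaV1.5_HFD range. Erythroid markers were above 0 in 5 of 5 (median 1.59; 571 to 764 CPM summed in Ctrl_HFD of batch 1, 864 to 2914 CPM in NaV1.5_HFD), macrophage markers in 7 of 7 (0.21) and fibroblast markers in 7 of 8 (0.20), and their part in the members' values was not tested. The median depended on which library was left out: it was -0.00 without Ctrl_HFD replicate 3 and ranged up to 0.18 without others.

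HFD was next compared with RD in control mice. Of 83 members 74 were above 0, and the median log2 difference was 0.15 against -0.00 over all genes. None passed, in a comparison in which 0.0% of genes were called, and 1 member, Ndufc2, had an unadjusted p under 0.05 (8.49% of all genes did, by edgeR; DESeq2 called 19 genes and limma-voom 69, none of them members). Ndufc2 had 222, 192 and 182 CPM in the batch 1 Ctrl_HFD libraries, all above the 146 to 178 CPM of Ctrl_RD, with 167 CPM in the batch 2 library; the log2 difference was 0.30 ± 0.14 (edgeR adjusted p = 0.58). Groups of batch 1 did not overlap for 2 members, Ndufc2 and Uqcrfs1, beside 5.27% of all genes. Ndufb6 (0.22 ± 0.11) and Ndufa3 (0.28 ± 0.16), accessory subunits of complex I as well, followed. Uqcrc1 (-0.17 ± 0.15), Cox4i2 (-0.18 ± 0.17) and the core subunit Ndufs7 (-0.08 ± 0.11) lay on the other side. Without Ctrl_HFD replicate 1, the highest of that group in most members, the median was 0.06, and Ndufb6 and Ndufa3 were both at 0.13 and Uqcrc1 at -0.089. Cox4i2 was at -0.0074 without Ctrl_RD replicate 3 and at -0.052 without Ctrl_HFD replicate 2. White adipocyte markers were above 0 in 0 of 5 (median -1.71; 8.13 to 28.8 CPM summed on RD, 2.67 to 10.4 CPM on HFD of batch 1), erythroid markers in 0 of 5 (-0.43) and epicardial markers in 5 of 5 (0.42). None was called, and their part in the members' values was not tested.

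In NaV1.5 mice the comparison of HFD with RD depended on NaV1.5_RD replicate 4. With all 9 libraries, 48 members were above 0 and 35 below, with a median of 0.02. None passed with edgeR, although 1.13% of all genes did, and 3 members had an unadjusted p under 0.05 beside 18.9% of genes. Ndufs7, a core complex I subunit that carries an iron-sulfur cluster near the quinone site, had 325, 342, 373 and 427 CPM on RD and 324, 267, 271, 319.7 and 302 CPM on HFD. Every HFD library was below every RD library, as for 1 of 83 members and 3.26% of all genes, and the log2 difference was -0.31 ± 0.09 (edgeR adjusted p = 0.094). It passed with DESeq2 (5.25% of genes called; adjusted p = 0.032) and with limma-voom (12.2%; 0.037), and was the 1 member called with all 29 libraries in one fit (4.11% of genes). Without replicate 4 its difference was -0.22 ± 0.09, with an adjusted p of 0.12 by edgeR. Ndufs1, the largest core subunit of complex I, had 405, 384, 358 and 445 CPM on RD and 495, 451, 441, 400.4 and 499 CPM on HFD, a difference of 0.20 ± 0.09 (edgeR adjusted p = 0.25), and the groups overlapped. White adipocyte markers, with a summed level of 0.49 to 39.5 CPM on RD and 0.05 to 9.43 CPM on HFD, were below 0 in 5 of 5 (median -2.56, none called), and ventricular markers were above 0 in 0 of 5 (median -0.69, none called). Of 12 cardiomyocyte markers 1 was called, lower, with a list median of -0.01 and summed levels that did not overlap (above), and their part in the members' values was not tested.

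Without replicate 4, 7 members rose on HFD in NaV1.5 mice and none fell, 8.43% of members beside 3.27% of all genes called higher (3.65% lower, 6.92% in either direction). Replicate 4 was singled out because 76 of 83 members were highest in it among the RD libraries. Leaving it out lowers the RD level and spread of the same genes. The excess over all genes is therefore in part built in by that choice. In this comparison 69 of 83 members were above 0, with a median of 0.21 against -0.00 over all genes. The 7 were Atp5md and Atp5mpl, small membrane subunits of the ATP synthase, Cox7c, Cox7b, Cox7a2 and Ndufa4 of complex IV, and the core protein Uqcrc2 of complex III. Atp5md had 265, 288 and 269 CPM in the 3 remaining RD libraries, all below the 343 to 408 CPM of the 5 HFD libraries; its log2 difference was 0.46 ± 0.12 (edgeR adjusted p = 0.026). Cox7c had 253, 284 and 269 CPM on RD and 359, 415, 395, 312 and 354 CPM on HFD, again without overlap (0.45 ± 0.12, edgeR adjusted p = 0.029). Uqcrc2 had 522, 495 and 459 CPM on RD and 608, 654, 608, 561 and 678 CPM on HFD (0.34 ± 0.09, edgeR adjusted p = 0.036). With replicate 4 in the fit, the RD range of these 3 genes reached 511, 514 and 674 CPM, and the groups overlapped.

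Other members did not share the direction of the 7. Uqcrc1, the partner of Uqcrc2 in complex III, had 868, 1016 and 1010.5 CPM in the same RD libraries and 757, 588, 667, 876 and 944 CPM on HFD, a difference of -0.33 ± 0.14 (edgeR adjusted p = 0.13). Cox4i2 (-0.36 ± 0.16) and Ndufs7 were also below 0, and the catalytic Atp5b, with 5016 to 5333 CPM on RD and 4494 to 5264 CPM on HFD, was near 0. Over all libraries of the group, limma-voom with quality weights, which gives a deviating library less weight, called 6 members beside 12.2% of all genes: Uqcrc2, Atp5md, Cox7c and Ndufs1 higher, Ndufs7 and Uqcrc1 lower.

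**Figure D4:**
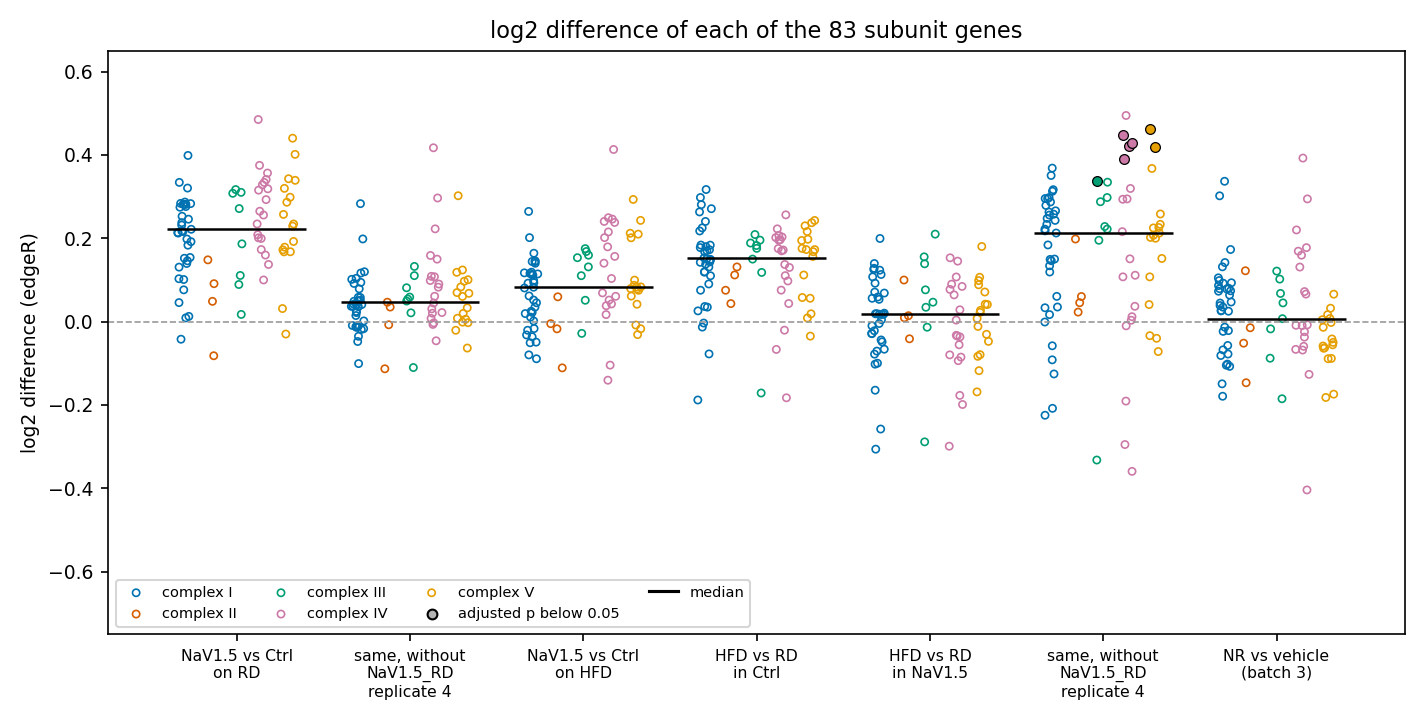
log2 difference of each of the 83 members (edgeR) in 5 comparisons and, for 2 of them, without NaV1.5_RD replicate 4, coloured by complex, with filled points at an adjusted p below 0.05 and a line at the median. The median on RD falls from 0.22 to 0.05 without that library, and the median for HFD in NaV1.5 mice goes from 0.02 to 0.21 with 7 members filled.

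The difference between genotypes in the response to HFD was tested as an interaction. The median was -0.13, with 80 of 83 members below 0, no member passed (0.0% of genes called by edgeR, DESeq2 or limma-voom), and none had an unadjusted p under 0.05, beside 2.26% of all genes. Cox6b2 had the smallest p of a member, with a log2 difference of -0.35 ± 0.18 (edgeR adjusted p = 1.00). Without NaV1.5_RD replicate 4 the median was 0.03. The RD and HFD comparisons above share libraries (those of Ctrl_RD and NaV1.5_RD), so their values are not independent of each other.

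NR was compared with vehicle in NaV1.5 mice on HFD, within batch 3. Members lay on both sides, 43 above 0 and 40 below, with a median log2 difference of 0.01. None passed the adjusted threshold in edgeR (0.425% of genes called), and 4 had an unadjusted p under 0.05, all higher, beside 4.3% of all genes in that direction. The smallest p was that of Cox6a2, with 826, 751, 809.8, 841 and 809.8 CPM in vehicle and 981 and 1138 CPM in the 2 NR libraries of batch 3. Both NR libraries were above all vehicle libraries, and the difference was 0.39 ± 0.09 (edgeR adjusted p = 0.063; DESeq2 adjusted p = 0.000960, with 1.54% of genes called). It was also called without a filter on low counts (0.417% of genes). The 5 NR libraries of batch 2 had 594 to 718 CPM, all below the lowest vehicle library, which is the opposite direction.

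Ndufa12, an accessory subunit of complex I, had 194, 174, 191, 156 and 180.4 CPM in vehicle and 242 and 210.0 CPM in NR of batch 3 (0.34 ± 0.09, edgeR adjusted p = 0.15). For Ndufb10, another accessory subunit, the values were 332, 291, 280.2, 306 and 309.5 CPM, and 365 and 384 CPM (0.30 ± 0.10, edgeR adjusted p = 0.21). Atp5e (-0.18 ± 0.09), Uqcrfs1, the Rieske iron-sulfur protein of complex III (-0.19 ± 0.09), and Sdhc (-0.15 ± 0.07) had the smallest p among members below 0. Groups that did not overlap were seen for 9 members higher and 7 lower, 10.8% and 8.43% of members beside 5.93% and 8.25% of all genes. Macrophage markers were above 0 in 7 of 7 (median 0.30; summed level 413 to 556 CPM in vehicle, 576 and 661 CPM in NR of batch 3), and white adipocyte markers in 5 of 5 (0.05 to 9.22 CPM, and 0.77 and 27.2 CPM). None was called, and their part in the members' values was not tested.

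The 5 NR libraries of batch 2 differed from vehicle in 74 members (51 higher, 23 lower), in a comparison in which 60.4% of all genes were called. There batch and treatment cannot be told apart. With all 7 NR libraries and no batch term, 39 members were called beside 26.6% of all genes. Among core and catalytic subunits, Sdha had 426 to 464 CPM in these NR libraries and 1071 to 1306 CPM in vehicle, Ndufv1 208 to 237 CPM against 489.8 to 589 CPM, and Atp5b 1781 to 2074 CPM against 3942 to 4495 CPM. Other members lay on the other side: Cox7b had 1191 to 1419 CPM against 643 to 738 CPM, and Atp5md 595 to 704 CPM against 274 to 302 CPM. The 2 NR libraries of batch 3 had 1129 and 1069 CPM of Sdha, 508 and 477 CPM of Ndufv1, 3975 and 3768 CPM of Atp5b and 271 and 274 CPM of Atp5md. Cox7b, at 803 and 759 CPM, was above every vehicle library there too. Cardiomyocyte markers (above), TCA cycle genes (4534 to 5251 CPM summed, 10019 to 11836 CPM in vehicle) and cytosolic ribosomal proteins (30894 to 34733 CPM, 15965 to 17343 CPM in vehicle) also separated the batch 2 libraries. So did the summed markers of epicardial cells (1172 to 1746 CPM, 266 to 376 CPM in vehicle), erythroid cells (2465 to 5497 CPM, 1190 to 1802 CPM), endothelial cells (1824 to 2194 CPM, 1241 to 1492 CPM) and fibroblasts (4600.0 to 5282 CPM, 3146 to 4155 CPM). Their part in the members' values was not tested.

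Across the 2 experiments, with all 29 libraries on one scale, vehicle-treated NaV1.5 mice on HFD were below untreated NaV1.5 mice on HFD in 78 of 83 members, with log2 differences from -2.43 to 2.14 and a median of -1.0001 (over all genes -0.03, with 51.4% below 0). Vehicle lay below without overlap in 76 members beside 26.9% of all genes, above without overlap in 3 beside 26.7%, and 4 overlapped. Cox6a2 went from 2288 ± 277 (SD, n = 5) to 731 ± 34.9 CPM (n = 5), Ndufb2 from 156 ± 6.14 to 28.9 ± 2.37 CPM and Cox8a from 196 ± 8.68 to 46.7 ± 5.04 CPM. The 3 members above without overlap were Atp5l, from 30.7 ± 0.812 to 135 ± 8.15 CPM, Ndufs1, from 492 ± 45.6 to 627 ± 39.2 CPM, and Atp5g2, 1 of 3 genes for the c ring of the ATP synthase. Experiment, batch and vehicle cannot be told apart here.

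Pairs of alternative subunits were compared within libraries, where a ratio of 2 genes needs no scaling. Cox7a2 made up 40.2 to 47.0% of the sum of Cox7a2 and Cox7a1 in Ctrl_RD, in CPM not corrected for length (per kilobase, Cox7a1 had 1221 and Cox7a2 525.7). Cox8a made up 22.6 to 23.8% of Cox8a and Cox8b, and Cox6a1 4.86 to 7.00% of Cox6a1 and Cox6a2. The log2 ratio of Cox7a2 to Cox7a1 was -0.45, -0.38 and -0.38 in Ctrl_HFD of batch 1 and -0.25, -0.06, -0.06, -0.23 and -0.30 in NaV1.5_HFD. All 5 NaV1.5_HFD libraries were above the 3 controls, by 0.22 on average (exact permutation test, 2-sided p = 0.036, the smallest these groups allow; adjusted over 30 tests 0.75). The group sizes allow no p below 0.016 to 0.095, so that no single one of the 30 tests could pass after adjustment, and they say nothing about the other pairs.

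The same ratio was -0.31, -0.34, -0.49 and 0.07 in NaV1.5_RD, with replicate 4 the highest of the diet experiment. For Cox8a to Cox8b the ratio was -1.77, -1.77, -1.68 and -1.68 in Ctrl_RD and -1.82, -1.83, -1.71 and -2.30 in NaV1.5_RD, with replicate 4 the lowest. Between the experiments it moved from a mean of -2.04 ± 0.15 (SD, n = 5) in NaV1.5_HFD to -2.76 ± 0.15 (n = 5) in vehicle, without overlap. In NR of batch 2, the ratio of Cox7a2 to Cox7a1 was 0.01 to 0.37, above all vehicle libraries (-0.42 to -0.03), and in NR of batch 3 it was -0.22 and -0.45.

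**Figure D5:**
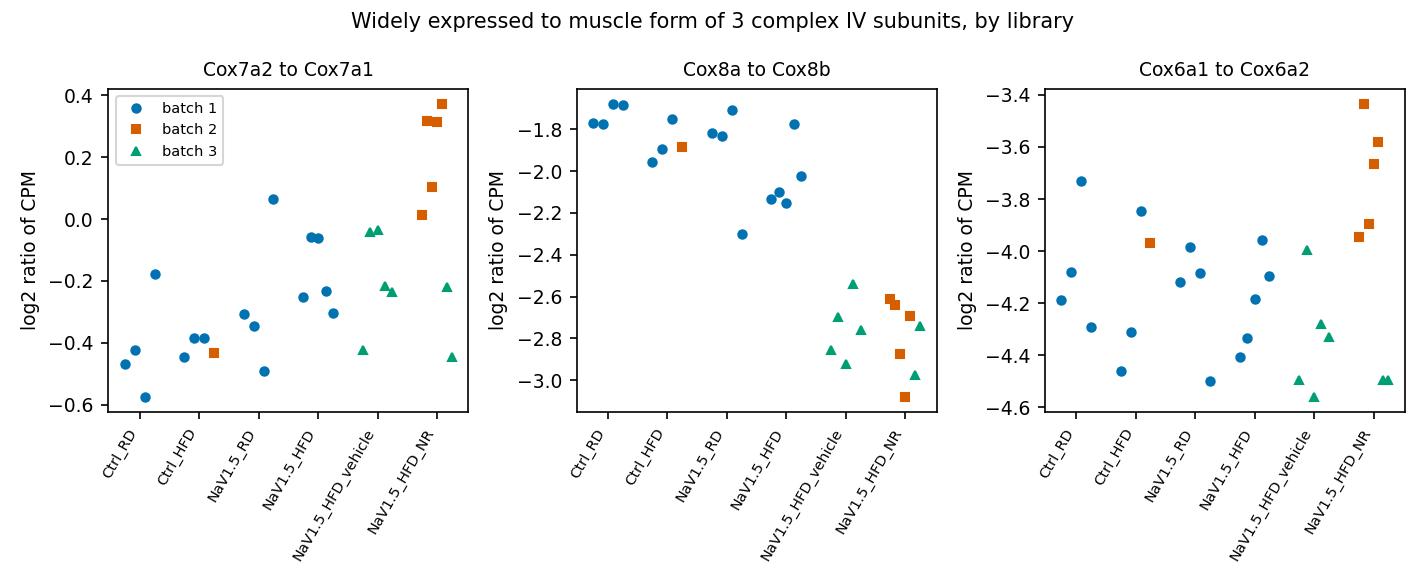
log2 ratio of the CPM of the widely expressed form to the muscle form for 3 pairs of complex IV subunits, 1 point per library, with symbols for the labelled batch. The Cox8a to Cox8b ratio separates the diet experiment (-2.30 to -1.68) from the supplementation experiment (-3.08 to -2.54), and NR of batch 2 lies above vehicle for Cox7a2 to Cox7a1.

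Other genes of the pathway were described in the same fits. Of 46 assembly factors tested in the diet experiment, which build the complexes but are not part of them, 0 were called in any of the 6 comparisons, 45 being tested under NR, and their medians lay between -0.06 and 0.06. The 11 mitochondrially encoded subunits tested had medians of 0.33 for HFD in control mice (11 of 11 above 0) and 0.27 in NaV1.5 mice (9 of 11), with none called, and -0.01 for genotype on RD. Under NR, with 0.425% of all genes called, 1 of 13 fell, mt-Atp8, with a log2 difference of -2.25 ± 0.40 (edgeR adjusted p = 0.042), while the other 12 did not pass. This rests on the 2 NR libraries of batch 3. The summed level of the 13 overlapped there (150332 and 192949 CPM, 148422 to 190497 CPM in vehicle). Of 14 fatty acid oxidation genes, 3 rose on HFD in NaV1.5 mice, where 1.13% of all genes were called: Acadvl, which opens the oxidation of long-chain fatty acids (0.43 ± 0.08, adjusted p = 0.023), Decr1, which handles unsaturated ones (0.42 ± 0.09, adjusted p = 0.032), and Hadhb, of the trifunctional protein (0.41 ± 0.09, adjusted p = 0.037). Etfdh, which passes electrons from fatty acid oxidation to the quinone pool, rose as well (0.38 ± 0.08, adjusted p = 0.029), 1 of 10 measured carriers and subunits outside the name rule. In control mice, where 0.0% of all genes were called, Etfdh was at 0.27 ± 0.09. The 14 fatty acid oxidation genes had a median of 0.19 there and 0.24 in NaV1.5 mice. By edgeR, 7 of 14 had an unadjusted p under 0.05 in control mice (8.49% of all genes) and 8 in NaV1.5 mice (18.9%). Their interaction median was 0.02. None of the 16 TCA cycle genes or the 18 regulators of respiratory genes was called in any of the 6 comparisons. Cytosolic ribosomal proteins, which are no part of the chain, had medians close to those of the members in the diet experiment: 0.23 for genotype on RD, 0.11 on HFD, 0.11 for HFD in control mice and -0.01 in NaV1.5 mice. The first and last of these include NaV1.5_RD replicate 4, where their summed level was 34351 CPM. It was 18648 to 19027 CPM in the rest of NaV1.5_RD, inside the 17532 to 23698 CPM of Ctrl_RD.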

How the data were processed

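The 29 deposited tables give unnormalized counts of read pairs for each gene name, which the authors made with featureCounts 2.0.1 on GENCODE vM25 gene models, per the file headers, without strand and without pairs that map to several places. Exon length in bases, another column of the deposited files, is the authors' length of all merged exons of a gene. FastQC 0.11.7, STAR 2.7.6a and builds GRCm38 and mm10 are named in the submitters' processing notes. The labels gave group and batch. The titles of 2 libraries, called Ctrl_RD replicate 1 and NaV1.5_RD replicate 4 here, are unnumbered, so their numbers only name them. No library was a duplicate of another: chi-square per gene was at least 7.77 between any pair within a group.

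Members and lists were chosen with earlier results of these data known. Counts were tested with edgeR 4.0.16 in R 4.3.3 (filterByExpr, TMM, robust quasi-likelihood F-test, 2-sided, Benjamini-Hochberg over all genes tested, threshold 0.05). The 4 diet groups (17 libraries) formed one fit and vehicle and NR (12 libraries) another, each with group and batch. Ctrl_HFD replicate 4 is absorbed by the batch term. The SE is the absolute log2 difference divided by the square root of F, not a fitted standard error. CPM was TMM-scaled within each experiment. In simulated counts a 1.25-fold change was recovered for 6% of changed genes for genotype on RD and for 2% under NR. A 1.5-fold change was recovered for 44.9% and 34.7%, and a 2-fold change for 77.6% and 63.0%. Changes as small as 1.25-fold would thus mostly go uncalled. Genes named were drawn from a list set by rule, and not every gene of it is printed. It held, in each comparison, the 3 members with the smallest p in each direction and up to 12 past the threshold. It also held 12 core subunits, the alternative subunits, the highest and lowest members of each complex, and up to 3 genes of each other list. Cox7b, Cox7c, Atp5mpl and the other members that passed without NaV1.5_RD replicate 4, as well as Cox6b1, Ndufs5, Ndufb2, Ndufv2 and Atp5g2, were named after their values were seen. Subunit roles were assigned by hand. Motif shares and promoters come from RefSeq GRCm38.p6. Alternatives were other scalings, filters, batch terms, tools (DESeq2 1.42.0, limma 3.58.1), offsets for length and GC content, a replicate block and each library left out. A check of the targeted gene is not reported here.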

Additional observations from a re-analysis of the deposited data

Results flagged for a closer look

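In groups of 4 to 10 libraries, the gap of the highest or lowest library to its neighbour was compared with the range of the group. Of 336 group values examined, 27 had a library far from the rest. Chance alone would mark about 5% of independent values. These values share libraries and genes, so the count cannot be read as an excess over that share. NaV1.5_RD replicate 4 accounts for 15 of the 27. In it the members took 6.30% of counts, with complex I at 1.54%, complex IV at 1.64% and complex V at 2.25%. It was also far above its group in CPM of Atp5c1 (1715), Atp5e (993), Atp5md (511), Cox7a2 (993), Cox8b (1112), Ndufa4 (1761), Ndufb10 (604), Ndufc2 (297) and Uqcrh (1568). Its log2 ratios of Cox4i2 to Cox4i1 (-7.97) and Ndufa4l2 to Ndufa4 (-6.83) were far below.

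Ctrl_RD replicate 4 was far above its group in Cox8a (223 CPM), Cox8b (716 CPM), Ndufa3 (356 CPM) and Uqcr11 (525 CPM), Ctrl_HFD replicate 1 in Ndufa8 (348 CPM) and NaV1.5_HFD replicate 5 in Sdhd (494 CPM). Vehicle replicate 1 was far above the other vehicle libraries in the members' share (3.31%), the share of complex II (0.214%), Cox4i1 (923 CPM), Cox7a1 (514 CPM), Ndufa3 (248 CPM) and Sdha (1306 CPM).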

How the results depend on the processing

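The count of members past the threshold stayed at 0 under each alternative run for genotype on RD, genotype on HFD, HFD in control mice and the interaction. For HFD in NaV1.5 mice it was 1 with all 29 libraries in one fit (4.11% of genes called), 1 with DESeq2 (5.25%) and 6 with limma-voom (12.2%), and 0 to 7 with a library left out, the 7 without NaV1.5_RD replicate 4. Under NR it was 1 without a low-count filter (0.417% of genes) and 1 with DESeq2, 39 without a batch term (26.6%) and 74 for NR of batch 2 (60.4%), where the median was 0.25 and 0.29. With a library left out, medians ranged from 0.05 to 0.29 (genotype on RD), -0.0034 to 0.18 (genotype on HFD), 0.06 to 0.24 (HFD in control mice), -0.051 to 0.21 (HFD in NaV1.5 mice), -0.21 to 0.03 (interaction) and -0.01 to 0.04 (NR).

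Offsets for GC content and length turned Ndufs1 on RD to 0.0095 and Ndufs7 for HFD in control mice to 0.036. With a library left out, Ndufs7 there ranged from -0.15 to 0.010, and in the interaction Uqcrc2 ranged from -0.035 to 0.16 and Uqcrfs1 from -0.025 to 0.11. Without a batch term, NR gave -0.084 for Cox6a2 and 0.85 for Atp5e, and NR of batch 2 gave -0.34 for Cox6a2, -0.055 for Ndufb10 and 1.11 for Atp5e. With all libraries, Cox7a2 to Cox7a1 under NR was 0.25. The cause was not tested.

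With the replicate number as a block, no member was called in the diet experiment and the medians were 0.04, 0.06, 0.13, 0.17 and 0.02, in the order of the report. That fit left out the unnumbered libraries, Ctrl_RD replicate 1 and NaV1.5_RD replicate 4. What the block itself changed therefore cannot be told apart from their absence. Of 16 same-numbered pairs 5 had a correlation over 0.1 (median -0.06), so the numbers were not taken to pair libraries. A block could not be fitted for NR, where numbers 6 and 7 have no vehicle partner and the others coincide with batch. Depth limits Cox6c2, Cox4i2 and Cox6b2, with 14, 41 and 62 counts in their lowest library.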
